A study of Homo sapiens with 6 samples.

Results

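Transcripts of 10 inflammatory genes were followed in human retinal pigment epithelial cells after knockdown of EIF1, the small initiation factor that helps the ribosome select its start codon. The set comprised the cytokines IL6, LIF, IL1A and IL1B, the chemokines CXCL8, CXCL1 and CCL2, the adhesion molecules ICAM1 and VCAM1, and NFKBIA, which encodes the inhibitor IκBα. The rows were selected by gene symbol from a list written with earlier results of these data known, and each of the 10 had 1 row among the 30618 genes of the count table. In all, 9 of the 10 had enough counts to be tested, out of 16749 genes tested, and VCAM1 did not.

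The cells were ARPE-19, an established human retinal pigment epithelial line that is widely used as a model of the outer blood-retinal barrier and differs from primary epithelium in its cell cycle and differentiation. The NC group of 3 libraries received a non-targeting control siRNA, and the siEIF1 group of 3 libraries received an siRNA against EIF1 by lipid transfection. Every library of both groups came from cells in 50 mM glucose, which models hyperglycaemia in diabetic retinopathy. The comparison is therefore between siRNAs under high glucose and not between glucose levels, and the paper reports no osmotic control. The methods list a single siRNA sequence against EIF1, while the lane labels of the uncropped blot name a further siEIF1 set without a sequence. Effects of the siRNA other than the loss of EIF1 were not tested. The replicates were described as independent, and polyadenylated RNA was sequenced as directional paired-end libraries.

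Inflammatory cytokine genes are typically held at a low level in resting epithelium and are switched on by NF-κB, a family of transcription factors kept in the cytoplasm by IκBα. Signals such as interleukin-1, tumour necrosis factor or bacterial products lead to phosphorylation and destruction of IκBα, after which NF-κB enters the nucleus, and one of the first genes it induces is NFKBIA itself. Many of these mRNAs are also short-lived because AU-rich elements in their 3′ untranslated regions recruit decay factors. In the diabetic retina, interleukin-6, interleukin-8, CCL2 and ICAM-1 are studied as mediators of leukocyte recruitment and barrier leakage.

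Promoters were examined first, since the set joins genes that are known targets of NF-κB and AP-1. RefSeq promoter windows (GRCh38.p14, from 250 bases before to 50 bases after the start of transcription) were available for 8 of the 10 genes and were searched on both strands. The NF-κB consensus searched was GGGRNNYYCC, where R is A or G, Y is C or T and N is any base. It was found in 4 of these 8 genes, IL6, CXCL1, VCAM1 and NFKBIA, and in 11.3% of all 35114 windows. The AP-1 motif, TGAGTCA or its reverse complement TGACTCA, was found in 2 of the 8, CXCL8 and IL1A, and in 4.95% of all windows. The member counts are by gene and the shares are by window, and a gene can have more than 1 window, as IL1A did with 2. A match is a stretch of letters and not proof of binding. The absence of an NF-κB match in the CXCL8, IL1A, ICAM1 and IL1B windows says only that these letters are not in those windows. The same holds for the AP-1 motif in windows without a match. The matches are shown 5′ to 3′ along the strand of each gene, with the motif in capitals.
IL6, NF-κB consensus starting at -73 from the start, chr7:22727117-22727146, forward strand: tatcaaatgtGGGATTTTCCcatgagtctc
CXCL1, NF-κB consensus starting at -79, chr4:73869304-73869333, forward strand: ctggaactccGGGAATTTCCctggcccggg
VCAM1, NF-κB consensus starting at -62, chr1:100719670-100719699, forward strand: tccccttgaaGGGATTTCCCtccgcctctg
NFKBIA, NF-κB consensus read on the opposite strand, starting at -81, chr14:35404811-35404840, reverse strand: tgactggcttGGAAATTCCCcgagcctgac
CXCL8, AP-1 motif starting at -137, chr4:73740421-73740449, forward strand: aggaagtgtgaTGACTCAggtttgccctg
IL1A, AP-1 motif, chr2:112784488-112784516, reverse strand: gcgaagaagacTGACTCAggcttaagctg
IL1A, AP-1 motif, chr2:112784438-112784466, reverse strand: tcattggcgttTGAGTCAgcaaaggtatt
The CXCL1 stretch held a further NF-κB match on the opposite strand that overlapped the one shown and was shifted by 1 base.

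Several of the genes lie close together in the genome. On GRCh38, IL1A (112773925 to 112784493) and IL1B (112829751 to 112836816) are both on the reverse strand of chromosome 2, with 45257 bases between them. CXCL8 (73740519 to 73743716) and CXCL1 (73869393 to 73871308) are on the forward strand of chromosome 4, with 125676 bases between them. The AU-rich pentamer ATTTA was present in the 3′ untranslated region of the canonical transcript of all 10 genes, and of 67.8% of 19229 protein-coding transcripts. Its density was 14.1 per kilobase in IL6, 9.84 in IL1B, 7.77 in CXCL1, 7.19 in CXCL8 and 6.0 in NFKBIA. It was 4.38 in IL1A, 3.94 in VCAM1, 2.66 in CCL2, 2.19 in LIF and 1.51 in ICAM1. The median over all those transcripts was 1.52. The longer nonamer TTATTTATT occurred in CXCL8, IL1B, CXCL1 and LIF, that is in 4 of the 10 genes, and in 8.50% of all those transcripts.

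The libraries held between 26499929 and 31431479 counts. EIF1 itself stood at 1305, 1254 and 1227 CPM, its counts scaled to the TMM-adjusted library size, in the NC libraries and at 109, 104 and 103 CPM in the siEIF1 libraries, so the knockdown was present in every library labelled siEIF1. Its log2 fold change was -3.58 (95% interval -3.70 to -3.47) and the siEIF1 level was 8.34% of NC. Of 14 epithelial markers, KRT18 (326 and 382 FPKM), KRT8 (113 and 131) and BEST1 (66.0 and 52.0) were abundant in NC and siEIF1. OTX2 was present at 17.8 and 18.7 FPKM, MITF at 5.84 and 5.59 and SERPINF1 at 1.70 and 1.92. Low in NC were RDH5 (0.380 FPKM), PMEL (0.270), RLBP1 (0.237), LRAT (0.120) and TYRP1 (0.0633). The pigment gene TYR had 4 counts over all 6 libraries, and RPE65 and TTR had no row. FPKM values are fragment numbers scaled to the length of the transcript and to the mapped fragments of the library.

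The members spanned a wide range of levels, and LIF stood above the rest. Mean FPKM in NC was 35.4 for LIF, a level higher than that of 95.0% of the tested genes. NFKBIA at 5.82 and ICAM1 at 5.79 followed. CXCL8 at 2.07, IL6 at 1.16, CCL2 at 1.09, IL1B at 0.890, IL1A at 0.290 and CXCL1 at 0.160 were below the median of the tested genes, which was 2.52. In this order, NFKBIA and ICAM1 overlapped in their NC libraries, as did IL6 with CCL2, CCL2 with IL1B, and IL1A with CXCL1, so these neighbours did not differ beyond their spread. In siEIF1, the order of LIF, NFKBIA, ICAM1 and CXCL8 was kept, while mean FPKM for IL6 came to lie below CCL2 and IL1B, although the libraries of IL6 and IL1B overlapped. LIF alone supplied between 72.5% and 77.0% of all member counts in each of the 6 libraries.

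**Figure D1:**
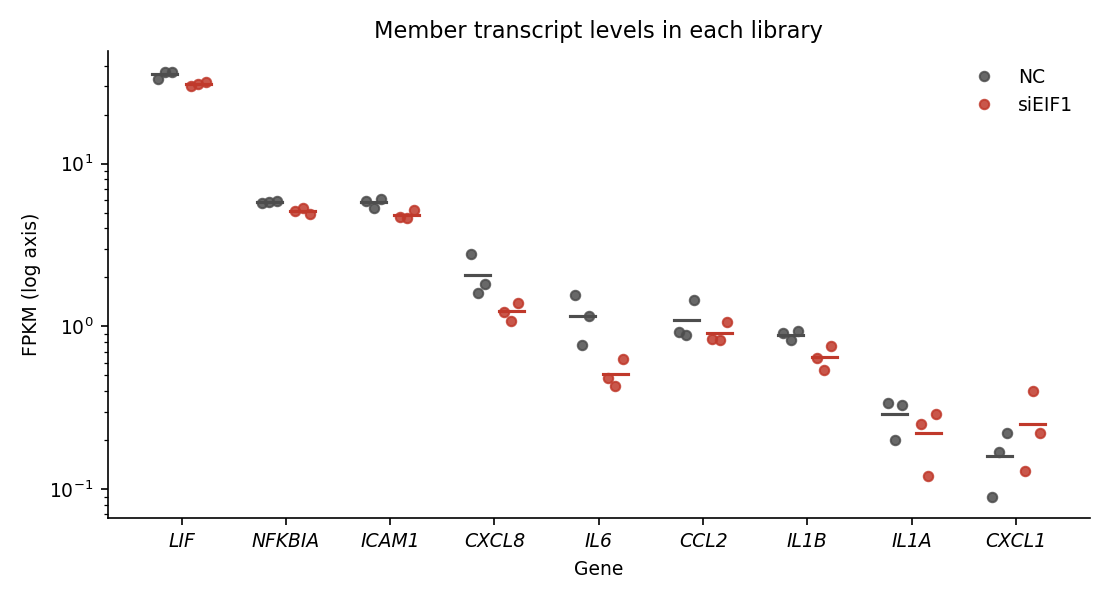
Level of 9 member genes in each library, in FPKM on a log axis, with NC in grey and siEIF1 in red; each point is 1 library and each line is the mean of 3. LIF is far above the other genes, the siEIF1 points of IL6 (0.43 to 0.63) lie below all NC points (0.77 to 1.55), and the points of CCL2, IL1A and CXCL1 overlap; VCAM1, with 1 count in all, is not drawn.

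After EIF1 knockdown, 4 of the 9 tested members fell, namely IL6, CXCL8, LIF and ICAM1, and 0 rose. Adjusted p-values throughout come from the quasi-likelihood test of edgeR, corrected by the Benjamini-Hochberg method across the 16749 tested genes, and an adjusted p under 0.05 counts as a call. Among all tested genes, 10.4% were called lower and 10.2% higher. At an unadjusted p under 0.05, 5 members were lower and 0 higher, and DESeq2 also called 4 lower and 0 higher. The 3 siEIF1 values lay below the 3 NC values, without overlap, for 6 of the 9 members, where 18.9% of all tested genes showed that pattern and 37.1% did not overlap in either direction. Only IL6 also changed by more than 2-fold, a combination met by 1.71% of all tested genes. The median log2 fold change was -0.25 over the 9 members and 0.0033 over all tested genes. The count of 4 rested in part on small differences in LIF and ICAM1, and CXCL8 also lost its call without NC replicate 1 or siEIF1 replicate 2. The count ranged from 1 (without siEIF1 replicate 2) to 5 (without siEIF1 replicate 3) when a single library was left out. It was 2 without NC replicate 1, NC replicate 3 or siEIF1 replicate 1. With limma on log2(FPKM + 1), 2 members were called lower.

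**Figure D2:**
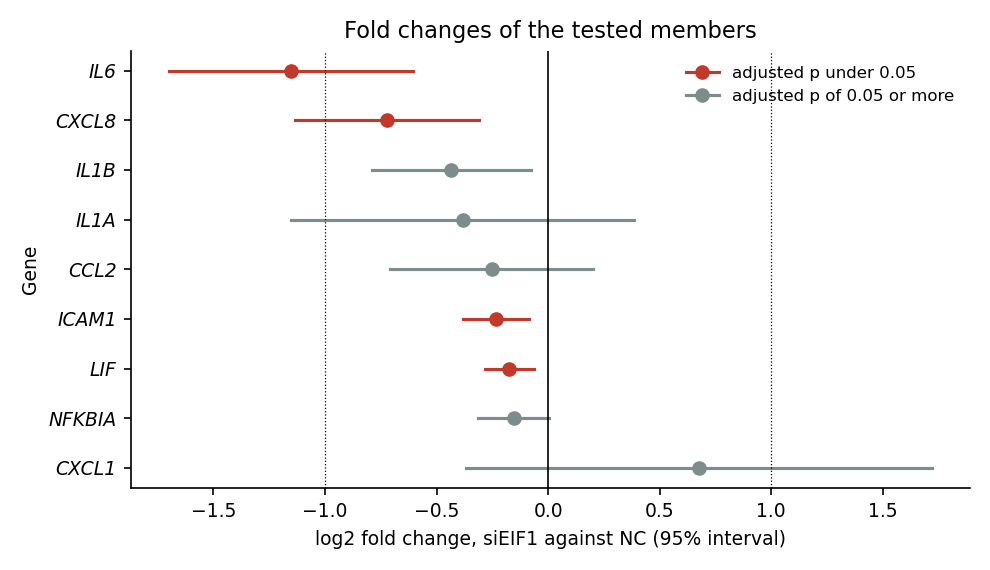
Log2 fold change of siEIF1 against NC for the 9 tested members, with 95% intervals; red marks an adjusted p under 0.05 and dotted lines mark a 2-fold change. The intervals of IL6, CXCL8, ICAM1 and LIF lie below 0, as does that of IL1B (-0.79 to -0.077), which was not called after adjustment, and CXCL1 alone lies above 0 with an interval that spans it.

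IL6 encodes interleukin-6, a cytokine that signals through the shared receptor subunit gp130 and drives the acute phase response. It showed the largest decrease among the tested members. Its counts were 104, 56 and 82 in the NC libraries and 38, 33 and 47 in the siEIF1 libraries. The same libraries gave 1.55, 0.77 and 1.16 FPKM in NC and 0.48, 0.43 and 0.63 FPKM in siEIF1. Every siEIF1 library was below every NC library, and NC replicate 1 was the highest of the 6. IL6 fell by 1.15 on the log2 scale (SE 0.253, 95% interval -1.70 to -0.61, adjusted p = 0.00580), to 45.0% of its NC level. The decrease was not shown to exceed 1.5-fold, since edgeR's glmTreat against that limit gave an adjusted p of 0.315. Without NC replicate 1 the log2 fold change was -0.89 (adjusted p = 0.0367), which is less than 2-fold.

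LIF encodes leukaemia inhibitory factor, another gp130 ligand, known in the retina as a survival signal for photoreceptors. Its levels were 33.23, 36.62 and 36.44 FPKM in NC and 30.16, 31.01 and 31.74 FPKM in siEIF1. The groups did not overlap, but the gap between the lowest NC and the highest siEIF1 library was small beside the level itself. LIF fell by 0.17 on the log2 scale (SE 0.051, 95% interval -0.28 to -0.065, adjusted p = 0.0268), to 88.6% of NC. With between 4182 and 4969 counts per library it was the most precisely measured member. The call was lost when NC replicate 2, NC replicate 3, siEIF1 replicate 1 or siEIF1 replicate 2 was left out (adjusted p between 0.0527 and 0.109).

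IL1A and IL1B encode the 2 forms of interleukin-1, which share a receptor and are early activators of NF-κB. IL1B had 89, 86 and 96 counts in NC and 74, 60 and 83 in siEIF1. In FPKM, IL1B stood at 0.890 ± 0.0625 (SD, n = 3) in NC and 0.647 ± 0.110 in siEIF1, and the libraries of the groups did not overlap. Its log2 fold change was -0.43 (95% interval -0.79 to -0.077), with an adjusted p of 0.0834 in edgeR, so it was not called; it was called only when siEIF1 replicate 3 was left out (-0.55, adjusted p = 0.0399). IL1A had 22, 14 and 23 counts in NC and 19, 9 and 21 in siEIF1, and the groups overlapped. At these counts the interval of its log2 fold change ran from -1.15 to 0.39, which includes 0, and IL1A was not called (adjusted p = 0.508).

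CXCL8 encodes interleukin-8, the main human chemoattractant for neutrophils. It had 203, 126 and 139 counts in the NC libraries and 106, 89 and 113 in the siEIF1 libraries. Its levels were 2.79, 1.61 and 1.82 FPKM in NC and 1.23, 1.08 and 1.40 FPKM in siEIF1. As for IL6, NC replicate 1 was the highest library and the groups did not overlap. CXCL8 fell by 0.72 on the log2 scale (SE 0.192, 95% interval -1.14 to -0.31, adjusted p = 0.0171), to 60.6% of NC. The call was lost without NC replicate 1 (-0.45, adjusted p = 0.0833) and without siEIF1 replicate 2 (-0.65, adjusted p = 0.0782).

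The other chemokines did not pass the test. CCL2, which attracts monocytes through the receptor CCR2, had 60, 62 and 99 counts in NC and 64, 60 and 76 in siEIF1. The groups overlapped, and the highest value was that of NC replicate 3. The log2 fold change of CCL2 was -0.25 (95% interval -0.71 to 0.20, adjusted p = 0.450), and it was 0.0023 without NC replicate 3. CXCL1, a neutrophil attractant that binds CXCR2, was close to the limit of detection, with 4, 8 and 10 counts in NC and 7, 20 and 11 in siEIF1. Its fitted log2 fold change was 0.67, the only positive value among the tested members, with a 95% interval of -0.37 to 1.72. CXCL1 has near-identical neighbours in CXCL2 and CXCL3, and its counts are uncertain where reads could be shared between them.

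The 2 adhesion molecules were at opposite ends of detection. ICAM1, the ligand on epithelial and endothelial cells for the leukocyte integrins LFA-1 and Mac-1, had 665, 650 and 711 counts in NC and 625, 587 and 649 in siEIF1. Scaled to FPKM these were 5.93, 5.38 and 6.06 in NC and 4.72, 4.62 and 5.21 in siEIF1. The groups did not overlap, although the lowest NC and the highest siEIF1 library were close. ICAM1 fell by 0.24 on the log2 scale (SE 0.068, 95% interval -0.38 to -0.088, adjusted p = 0.0265), from 5.79 ± 0.361 to 4.85 ± 0.316 FPKM (SD, n = 3, edgeR). The call was lost when NC replicate 1, NC replicate 3, siEIF1 replicate 1 or siEIF1 replicate 2 was left out (adjusted p between 0.0689 and 0.109). VCAM1, the ligand of the integrin VLA-4, had 1 count in NC replicate 3 and 0 in the other 5 libraries. A count of 0 allows up to 3 counts per library, or between 0.0954 and 0.113 CPM of the unadjusted library totals, and no fold change is given for VCAM1.

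NFKBIA, the inhibitor that NF-κB induces to end its own activity, had 439, 485 and 477 counts in NC and 469, 468 and 422 in siEIF1. Its levels were 5.70, 5.84 and 5.91 FPKM in NC and 5.15, 5.36 and 4.92 FPKM in siEIF1. The FPKM values did not overlap, while the unscaled counts did, since the siEIF1 libraries were deeper. The log2 fold change was -0.15 (95% interval -0.31 to 0.0044, adjusted p = 0.165), so NFKBIA was not called, and the interval leaves room for a decrease of the size seen for ICAM1 and LIF. NFKBIA was not called under any of the 14 alternative settings or library omissions (adjusted p between 0.0695 and 0.373).

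**Figure D3:**
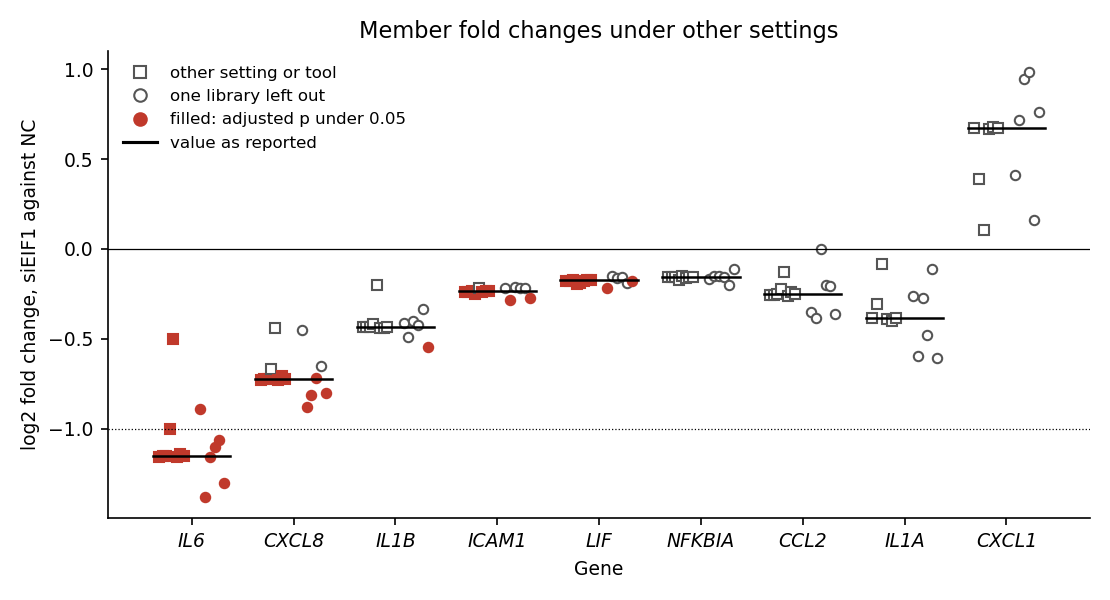
Log2 fold change of siEIF1 against NC for the 9 tested members under the alternative settings (squares) and with each library left out in turn (circles); filled red symbols have an adjusted p under 0.05 and the black line is the value as reported. IL6 is filled throughout (adjusted p up to 0.0367), whereas CXCL8, ICAM1 and LIF lose the call in some settings, and the only CCL2 value above 0 is that without NC replicate 3.

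Markers of other cell types were checked beside these results. Of 11 leukocyte markers, 8 had FPKM values, which summed to between 1.26 and 1.37 in the NC libraries and between 1.31 and 1.43 in the siEIF1 libraries, and CD14, CD3E, ITGAM and LYZ had at most 7 counts over all 6 libraries. Of 8 endothelial markers, 7 had values, with sums between 0.22 and 0.32 in NC and between 0.19 and 0.30 in siEIF1. Only 2 leukocyte markers (CD68 and CSF1R) and 2 endothelial markers (KDR and TIE1) had enough counts to be tested, and none of these was called. Some mesenchymal markers moved with the knockdown, with sums between 860 and 883 FPKM in NC and between 1038 and 1102 in siEIF1. VIM, at a mean of 829 FPKM in NC and 1006 in siEIF1, made up most of these sums. VIM, FN1 and ACTA2 rose and TAGLN fell among 7 tested. Some epithelial markers also shifted, with RLBP1, KRT8 and KRT18 higher among 10 tested. Sums were between 523 and 542 FPKM in NC and between 566 and 612 in siEIF1, mostly from KRT18 and KRT8. RLBP1 was low in both groups (0.237 and 0.680 FPKM in NC and siEIF1). BEST1 was lower in siEIF1 but not called in edgeR (log2 fold change -0.32, adjusted p = 0.106). The part of these shifts in the member results was not tested. In bulk RNA, fewer cells expressing a gene and less of its RNA per cell cannot be told apart.

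Genes around the members were then described by list. The 7 lists held 206 genes besides the members, of which 185 had a row in the count table and 140 were tested. Of these, 12 rose (8.57%, against 10.2% of all tested genes) and 21 fell (15.0%, against 10.4%), with a median log2 fold change of -0.035. Past both limits were 4 of the 140, PTX3, LCN2, CXCL3 and IL1RN, where 1.71% of all tested genes met them. Each of the 4 was lower in siEIF1. Without NC replicate 3, 6 genes were called higher.

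**Figure D4:**
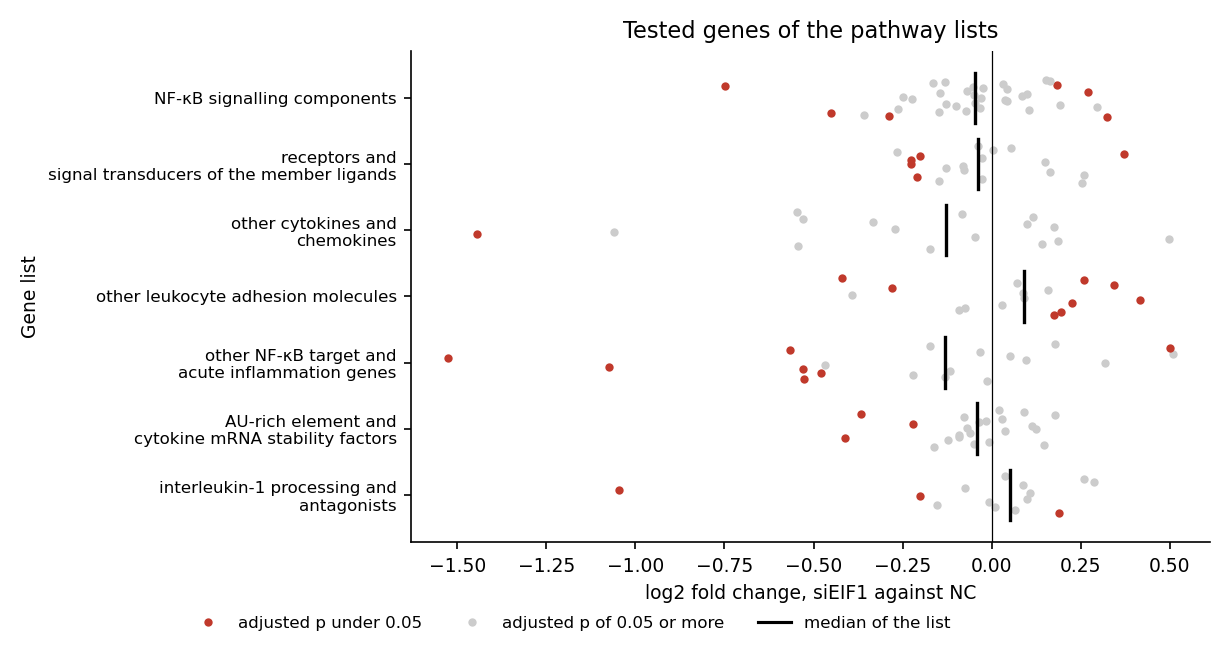
Log2 fold change of siEIF1 against NC for the tested genes of 7 lists around the members, 1 point per gene, with red for an adjusted p under 0.05 and a black line for the median of the list. The 4 points at or below -1.0 that are red are PTX3, CXCL3, LCN2 and IL1RN, and the red points of the adhesion list lie mostly to the right of 0 (6 of 8).

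All 35 listed components of the NF-κB pathway itself were tested, and 3 rose (8.57%, against 10.2% of all tested genes), 3 fell (8.57%, against 10.4%) and 29 did not pass the test, with a median log2 fold change of -0.048. RELA, the p65 subunit, had a log2 fold change of -0.05 (adjusted p = 0.504) and NFKB1, which encodes p105 and p50, one of 0.04 (adjusted p = 0.743). TNFAIP3, the ubiquitin-editing brake A20, fell by 0.75 on the log2 scale (adjusted p = 0.0128), from 0.513 ± 0.0404 to 0.297 ± 0.0635 FPKM (SD, n = 3, edgeR). The kinase gene CHUK, which encodes IKKα, fell by 0.45 (adjusted p = 0.00301), and BIRC2, a ubiquitin ligase of the TNF receptor complex, fell by 0.29. TAB1, an activator of the kinase TAK1, rose by 0.27, and TNIP1, a partner of A20, rose by 0.18, while BCL3, an atypical nuclear IκB protein named after its value was seen, rose by 0.32. The most abundant component was IRAK1, a kinase of the interleukin-1 receptor, with 48.3 FPKM in NC and 46.6 in siEIF1, and it did not pass the test. The count of higher components was 1 without NC replicate 1 or siEIF1 replicate 2 and 0 without NC replicate 3, and that of lower components was 5 without siEIF1 replicate 3.

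Among receptors and signal transducers of the member ligands, 19 of 32 genes were tested. Of the tested genes, 1 rose (5.26%, against 10.2% of all tested genes) and 4 fell (21.1%, against 10.4%). STAT3, the transcription factor through which IL-6 and LIF act, rose by 0.37 on the log2 scale (SE 0.071, adjusted p = 0.00243), with 3.54, 3.55 and 3.90 FPKM in NC and 4.15, 4.68 and 5.21 FPKM in siEIF1. Every siEIF1 library lay above every NC library. IL6ST, which encodes gp130 and was named after its value was seen, fell by 0.21 (adjusted p = 0.0291), from 12.7 ± 0.553 to 10.8 ± 1.18 FPKM (SD, n = 3, edgeR). OSMR, a partner of gp130, fell by 0.23, as did PTPN11, which encodes the phosphatase SHP2. ITGB1 (25.1 and 27.7 FPKM in NC and siEIF1) and TNFRSF1A (22.7 and 23.3) were the most abundant tested genes of the list and did not pass. The count of lower genes was 1 with limma on log2(FPKM + 1) and 2 on log2(FPKM + 0.1), and that of higher genes was 2 without a filter on low counts. With libraries left out, the count of lower genes was 2 without NC replicate 1 or NC replicate 3 and 1 without siEIF1 replicate 2, and that of higher genes was 2 without NC replicate 1 or siEIF1 replicate 2.

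Of 44 other cytokines and chemokines, 31 had a row and 16 were tested. In edgeR, 1 fell (6.25%, against 10.4% of all tested genes) and 0 rose (against 10.2%). At an unadjusted p under 0.05, 4 were lower and 0 higher, and DESeq2 called 1 lower and 0 higher. With limma, on log2(FPKM + 1) as on log2(FPKM + 0.1), 3 were lower, and without a filter on low counts 2 were. CXCL3, a neutrophil attractant of the CXCL1 family, had 62, 39 and 55 counts in NC and 27, 17 and 18 in siEIF1. It fell by 1.44 on the log2 scale (SE 0.275, adjusted p = 0.00230), to 36.8% of NC, with the limit on near-identical paralogues given above for CXCL1. The most abundant of these cytokines, IL18 (62.4 FPKM in NC and 65.9 in siEIF1) and MIF (51.9 and 48.3), did not pass the test. The count of lower genes was 3 without siEIF1 replicate 1 and 2 without siEIF1 replicate 3.

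Among other leukocyte adhesion molecules, more genes were higher than lower. Of 27 listed genes, 16 were tested, and the median log2 fold change was 0.090. Of the tested genes, 6 rose (37.5%, against 10.2% of all tested genes) and 2 fell (12.5%, against 10.4%). F11R, the junctional adhesion molecule A of epithelial tight junctions, rose by 0.42 (SE 0.047, adjusted p = 4.89e-05), from 10.1 ± 0.355 to 13.3 ± 0.355 FPKM (SD, n = 3, edgeR). CD99L2 (0.23), which acts in leukocyte transmigration, and the nectin NECTIN3 (0.26) were also higher, and CD44, the hyaluronan receptor, was the most abundant gene of the list and rose by 0.20. PVR, the poliovirus receptor, fell by 0.42 (adjusted p = 0.00104), to 74.8% of NC. The remaining calls, named after their values were seen, were NECTIN1 (0.34) and ALCAM (0.17), which were higher, and MCAM (-0.28), which was lower. With limma on log2(FPKM + 1) or log2(FPKM + 0.1), 2 genes of the list were higher and 1 was lower. The count of higher genes was 3 without NC replicate 2 or NC replicate 3, and that of lower genes was 1 without NC replicate 2 or siEIF1 replicate 1.

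Among further NF-κB target and acute inflammation genes, more genes were lower than higher. Of 28 listed genes, 19 were tested, and the median log2 fold change was -0.13. Of the tested genes, 6 fell (31.6%, against 10.4% of all tested genes) and 1 rose (5.26%, against 10.2%). PTX3, the long pentraxin of innate immunity, stood at 47.25, 24.91 and 30.74 FPKM in NC and at 10.70, 9.37 and 15.20 FPKM in siEIF1. The groups did not overlap, and NC replicate 1 was again the highest library. PTX3 fell by 1.53 on the log2 scale (SE 0.197, adjusted p = 1.35e-04), to 34.7% of NC. LCN2, the siderophore-binding lipocalin, also had its highest value in NC replicate 1, with 3.51, 2.23 and 3.28 FPKM in NC and 1.13, 1.28 and 1.82 FPKM in siEIF1, and fell by 1.07 (adjusted p = 0.00177). SOD2, the mitochondrial superoxide dismutase, fell by 0.57 (adjusted p = 9.11e-06), from 3.14 ± 0.101 to 2.09 ± 0.0889 FPKM (SD, n = 3, edgeR). CEBPB, which encodes a transcription factor of the IL6 promoter, fell by 0.53 (adjusted p = 9.55e-06), from 70.7 ± 3.70 to 48.3 ± 1.80 FPKM (SD, n = 3, edgeR). SDC4 was as abundant as CEBPB (71.0 FPKM in NC and 68.4 in siEIF1) and did not pass. The remaining calls, named after their values were seen, were IRF1 (-0.53) and GCH1 (-0.48), which were lower, and TNFAIP2 (0.50), which was higher. No gene of the list was called higher without NC replicate 1, NC replicate 2 or siEIF1 replicate 1.

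Factors that act on AU-rich elements and cytokine mRNA stability were next compared. All 22 were tested, and in edgeR 3 fell (13.6%, against 10.4% of all tested genes) and 0 rose (against 10.2%). At an unadjusted p under 0.05, 1 was higher, and 0 were higher in DESeq2. DUSP1, the phosphatase that switches off p38 and JNK, had 110.38, 111.04 and 108.73 FPKM in NC and 82.61, 79.05 and 83.04 FPKM in siEIF1. The replicates of each group lay close together and the groups were far apart. DUSP1 fell by 0.41 on the log2 scale (SE 0.045, adjusted p = 3.21e-05). ZFP36, which encodes tristetraprolin, a protein that directs AU-rich mRNAs to decay, fell by 0.37 (adjusted p = 0.0335), from 3.83 ± 0.420 to 2.92 ± 0.319 FPKM (SD, n = 3, edgeR). RC3H2, a roquin protein that binds stem-loops in cytokine mRNAs, fell by 0.22. The tristetraprolin relative ZFP36L1 was more abundant than ZFP36, at 54.4 FPKM in NC and 57.2 in siEIF1, and did not pass. Without siEIF1 replicate 3, 1 gene of the list was called higher.

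Of 19 genes for interleukin-1 processing and its antagonists, 14 were tested. Of the tested genes, 1 rose (7.14%, against 10.2% of all tested genes) and 2 fell (14.3%, against 10.4%). IL1RN, which encodes the interleukin-1 receptor antagonist, had 51, 78 and 59 counts in NC and 36, 35 and 27 in siEIF1. The groups did not overlap, and IL1RN fell by 1.05 on the log2 scale (SE 0.221, adjusted p = 0.00461), to 48.4% of NC. GSDME, a pore-forming gasdermin, fell by 0.20 and the protease gene CAPN1 rose by 0.19. TXNIP (93.9 FPKM in NC and 95.1 in siEIF1), a thioredoxin-binding protein known to respond to glucose, and CAPN2 (71.9 and 74.3) were the most abundant genes of the list and did not pass. Without siEIF1 replicate 3, 2 genes were called higher, and with limma on log2(FPKM + 1) or log2(FPKM + 0.1) 0 were.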

How the data were processed

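RNA-seq of ARPE-19 cells was analysed, with 3 NC and 3 siEIF1 libraries grouped by their titles. The authors trimmed reads with FASTX-Toolkit 0.0.13, aligned them to GRCh38 with HISAT2 and deposited unnormalized counts of uniquely mapped reads per gene. The authors also deposited FPKM values, rounded, for 30275 of the 30618 genes. The counting program, its strand setting and the annotation release are not given in the sources used here, so genes with near-identical copies or overlapping neighbours are uncertain. The number of table columns left unmatched to a library was 0.

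Counts were filtered with filterByExpr, normalized by TMM (factors between 0.981 and 1.02) and tested with edgeR 4.0.16 in R 4.3.3 (quasi-likelihood test, 2-sided, Benjamini-Hochberg adjustment). Standard errors were derived from the quasi-likelihood F statistic. The replicate spread within groups exceeded counting noise in every pair of libraries (chi-square per degree of freedom between 2.87 and 13.0). P-values weigh the difference between the groups against the spread between replicate libraries. Mean ± SD is over 3 libraries. The floor of 3 counts covers counting error only.

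The members and lists were chosen with earlier results of these data known. Named genes are the members, EIF1, list genes past an adjusted p of 0.05 and 2-fold, up to 4 per list with the smallest p-values below 0.05, RELA, NFKB1, TNFAIP3 and the 2 most abundant of a list. Genes without a row were not analysed here, and a few list genes are counted but not named. Positions and 3′ untranslated regions came from GENCODE release 44, which held 30518 of the 30618 IDs, and promoters from RefSeq. Alternatives were RLE and upper-quartile normalization, no filter, at least 10 counts in every library, DESeq2 1.42.0, limma 3.58.1 on log2(FPKM + 1) and log2(FPKM + 0.1), a replicate block, glmTreat at 1.5-fold and leaving out each library. Scripts were tested on simulated data.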

Additional observations from a re-analysis of the deposited data

How the results depend on the processing

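IL6 was called lower in the 14 alternatives that test for any change (adjusted p between 9.76e-07 and 0.0367) and not by glmTreat against 1.5-fold (0.315), and 0 members were called higher in those 14. The number of members called lower, 4 as reported, was 2 with limma on log2(FPKM + 1) and between 1 and 5 with a library left out. The number past 2-fold as well, 1 as reported, was 0 with limma on log2(FPKM + 1), where the pseudocount shrinks low genes, 0 with glmTreat against 1.5-fold, and between 0 and 1 with a library left out. Genes of the 7 lists called higher, 12 as reported, were 6 with limma on log2(FPKM + 1), 6 on log2(FPKM + 0.1) and between 6 and 15 with a library left out, and those called lower were between 17 and 24 in all alternatives. CXCL8 lost its call with limma on log2(FPKM + 1) and log2(FPKM + 0.1) (adjusted p = 0.0621 and 0.0501), and ICAM1 with limma on log2(FPKM + 1) (0.0522). The log2 fold change of CCL2 was between -0.38 and 0.0023 with a library left out, the latter without NC replicate 3. The cause was not tested. Deviations of same-numbered libraries correlated at 0.149, 0.0946 and 0.128, and every library correlated best with its own number, which is a hint from the data and not part of the design. With a replicate block, 4277 genes were called in place of 3446, IL6 had a log2 fold change of -1.14 (adjusted p = 8.62e-04), 4 members were lower and 0 higher, and the counts were 3 lower for other cytokines and chemokines and 2 higher for receptors and transducers. DESeq2 gave no adjusted p for IL1A and CXCL1, and the filter of 10 counts in every library removed both.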
